A study of Drosophila melanogaster with 2 samples.

Results

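In all, 9 genes of the insulin, PI3K and TOR pathway were examined for binding of the zinc-finger protein D19B in fly embryos: InR, chico, Pi3K92E, Pi3K21B, Akt, foxo, Tor, S6k and Thor. These 9 of 13968 annotated protein-coding genes were chosen from the measured values described here, namely the positions and heights of D19B peaks at their promoters, in their bodies and within 5 kb of either end. A promoter peak is one with its summit within 500 bp of an annotated transcription start site (TSS) of the gene. The peak values at these genes are given as a description, with no test, because they entered the choice. A total of 18 of the 4309 reproducible peaks belonged to the 9 genes under this rule, and 7 of the 9 genes had at least 1.

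The material was whole Drosophila melanogaster embryos of pooled sex, 0 to 24 h old, from a transgenic stock in which D19B carried GFP at its C terminus. Chromatin sonicated to 200 to 800 bp was precipitated with an anti-GFP antibody and sequenced (ChIP-seq) in 2 libraries, numbered as biological replicates 2 and 3. Both libraries formed 1 group, both came from that stock, and all cell types of the embryo were pooled. No group without the tag is compared here, the control used in peak calling is not analysed here, and the read depth behind each value is unknown from peak lists. Heights are the authors' own signal values, taken here as the height of a peak over that control, since the labels and file records name no peak caller and do not define the value. The list of both libraries together, that of replicate 2 and that of replicate 3 were not scaled to each other, so heights are read as higher or lower only within a list, and between lists the ranks are given. A ratio between the lists of the replicates is set only beside the same ratio over all matched IDR peaks. The reproducible set, selected by an irreproducible discovery rate (IDR) step, had signals of 117.1 to 15866.3 with a median of 199.5. No IDR peak was lower than 117.1, whereas the lists that entered the IDR step held 30000 regions each and reached down to 30.2 for both libraries, 20.0 for replicate 2 and 16.2 for replicate 3.

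Insulin-like peptides act on the receptor InR, which with its adaptor chico recruits a phosphoinositide 3-kinase (PI3K) to the membrane. The lipid made by PI3K activates the kinase Akt, which keeps the transcription factor foxo out of the nucleus and, by way of the TSC proteins and Rheb, acts on the kinase Tor. Tor in turn phosphorylates S6k and the translation inhibitor Thor, and in flies this chain couples nutrition to cell size, growth rate and body size.

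The sequences under the summits that the results turn on are given here from the RefSeq release 6 assembly, whose coordinates are those of dm6. Each reaches 50 bp to either side of a summit and is written on the strand of the gene named, with any of the 8 words searched in capitals. The first 6 are the promoter peaks of Pi3K21B, foxo and Tor and the tallest peak of foxo. They are followed by the peaks of InR, Thor, Akt and S6k that stand out by height, place or spread between the libraries.
Pi3K21B, farther promoter peak, plus strand of chr2L:297592-297692: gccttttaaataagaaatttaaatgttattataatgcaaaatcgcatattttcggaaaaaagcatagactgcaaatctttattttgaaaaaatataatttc
Pi3K21B, nearer promoter peak, plus strand of chr2L:297792-297892: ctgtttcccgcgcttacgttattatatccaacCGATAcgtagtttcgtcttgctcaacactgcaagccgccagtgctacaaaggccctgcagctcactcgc
foxo, farther promoter peak, plus strand of chr3R:14056406-14056506: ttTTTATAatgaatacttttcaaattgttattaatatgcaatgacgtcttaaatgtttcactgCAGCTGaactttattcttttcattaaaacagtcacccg
foxo, nearer promoter peak, plus strand of chr3R:14056609-14056709: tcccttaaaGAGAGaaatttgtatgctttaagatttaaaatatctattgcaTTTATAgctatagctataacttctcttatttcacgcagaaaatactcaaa
Tor, promoter peak, plus strand of chr2L:13004176-13004276: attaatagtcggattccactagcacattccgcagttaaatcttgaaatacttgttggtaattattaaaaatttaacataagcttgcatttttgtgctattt
foxo, tallest upstream peak, plus strand of chr3R:14053555-14053655: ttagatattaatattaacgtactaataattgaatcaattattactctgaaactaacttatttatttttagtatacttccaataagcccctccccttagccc
InR, tallest intron peak, minus strand of chr3R:21613058-21613158: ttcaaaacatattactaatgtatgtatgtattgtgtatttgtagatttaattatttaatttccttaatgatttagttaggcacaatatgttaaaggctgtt
InR, intron peak nearest to a start, minus strand of chr3R:21590789-21590889: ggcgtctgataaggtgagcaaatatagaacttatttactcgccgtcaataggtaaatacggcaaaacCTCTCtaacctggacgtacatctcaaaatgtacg
Thor, tallest upstream peak, plus strand of chr2L:3477596-3477696: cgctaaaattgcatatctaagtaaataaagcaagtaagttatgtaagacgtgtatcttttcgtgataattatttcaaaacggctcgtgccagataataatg
Akt, tallest upstream peak, plus strand of chr3R:16094365-16094465: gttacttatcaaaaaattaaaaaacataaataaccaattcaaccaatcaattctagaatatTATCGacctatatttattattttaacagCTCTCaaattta
S6k, intron peak, minus strand of chr3L:5808234-5808334: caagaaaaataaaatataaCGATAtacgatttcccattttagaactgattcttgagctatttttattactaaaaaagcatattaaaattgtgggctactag

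Pi3K21B, foxo and Tor had promoter peaks, which is 3 of 9 genes, beside 15.3% of all protein-coding genes. This count moved with the distance limit, to 1 gene at 200 bp (Pi3K21B) and 5 genes at 1000 bp (InR and Thor added). InR, foxo and S6k had summits inside the gene, also 3 of 9, beside 11.6% of all protein-coding genes. With the 5 kb on either side included, 7 of 9 genes had a summit, beside 43.6% of all protein-coding genes. Because these peaks entered the choice of the genes, nothing is read from the shares. The 18 peaks were 5 promoter peaks, 6 peaks in gene bodies, which all lay in introns, and 7 peaks outside the genes, of which 6 were upstream and 1 was downstream.

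**Figure D1:**
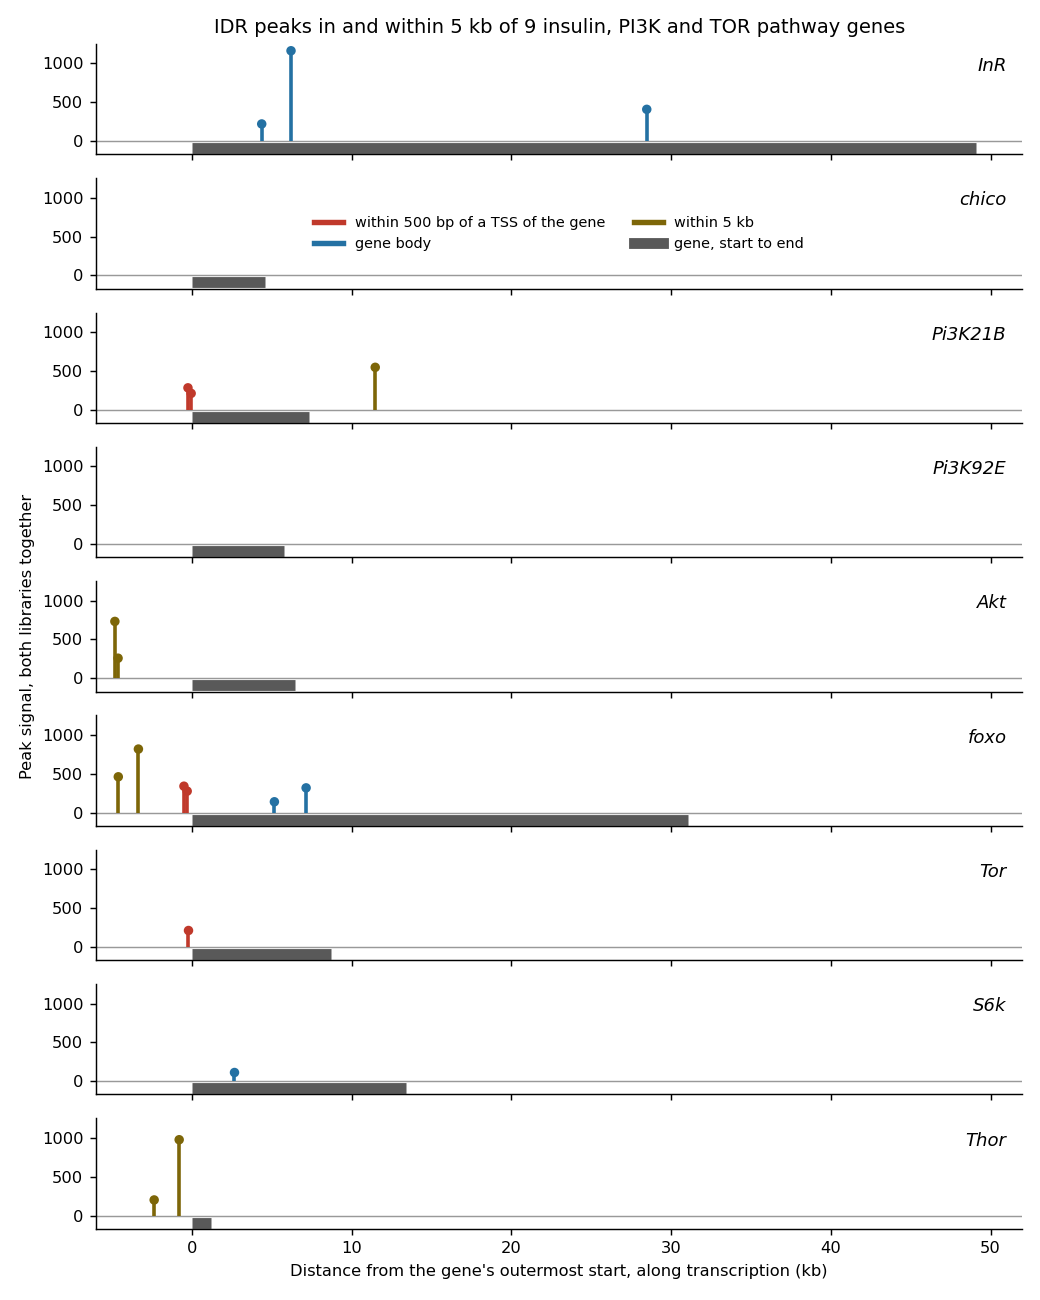
Position and signal of the 18 IDR peaks at the 9 genes. The x axis gives the distance in kb from the outermost start of each gene along transcription, the y axis the signal in the list of both libraries together, and the grey bar the gene; InR holds the tallest peak, at 1163.0, and chico and Pi3K92E have none.

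InR encodes the insulin receptor, a receptor tyrosine kinase, and spans 49.1 kb of 3R (21570248 to 21619321, minus strand) with 4 TSSs. Its body held 3 summits, all in introns. The tallest, at 21613108, had a signal of 1163.0 for both libraries together, 809.4 for replicate 2 and 376.4 for replicate 3. It ranked 126 of 4309 IDR peaks, was the tallest of the 18 peaks, and lay 5928 bp into the gene from the nearest InR TSS. Its region was 560 bp wide, against a median of 430 bp over all IDR peaks. The nearest annotated TSS of any gene was that of the non-coding RNA gene lncRNA:CR44034, 2632 bp away.

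A second InR summit, at 21590839, lay 648 bp upstream of the internal start of transcript InR-RD and so just outside the 500 bp limit. Its signal was 409.6 for both libraries, 288.7 for replicate 2 and 118.1 for replicate 3, and it ranked 767. The third, at 21614942, had 221.7 for both libraries, 134.5 for replicate 2 and 76.7 for replicate 3, and lay 798 bp from the start of lncRNA:CR44034. All 3 InR peaks were thus found in both libraries, and their order by height was the same in each of the 3 lists. At the InR starts themselves the tallest listed region, outside the IDR set, had a signal of 103.7 for both libraries and ranked 4977 of 30000. It had its summit 80 bp from the outermost TSS. In the list of replicate 2 the tallest region at an InR start was elsewhere, 407 bp from the internal start of InR-RD, with a signal of 80.8. In that of replicate 3 it lay 159 bp from the outermost TSS, with 24.5.

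chico, the fly insulin receptor substrate, occupies 4.6 kb of 2L (10242512 to 10247078, minus strand) and had no IDR summit in the gene or within 5 kb. The IDR summit with the smallest gap to the gene lay 12103 bp outside it and had a signal of 129.3. At any rank, 2 regions had their summits inside chico in the list of replicate 2, the taller at 37.9, and none did in the other lists.

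The catalytic and the regulatory subunit of the class I PI3K differed in their peaks. Pi3K92E, the catalytic subunit, spans 5.8 kb of 3R (20628972 to 20634732, minus strand), and the nearest IDR summit lay 29398 bp outside the gene. No region of any list, at any rank, had its summit within 500 bp of the Pi3K92E start. In the list of replicate 2 alone, 1 region had its summit in the gene body, at 20634152, with a signal of 142.2 that ranked 1963 of 30000 and a −log10 q of 3.86. Neither the list of replicate 3 nor that of both libraries held a region with a summit in Pi3K92E, so the region of replicate 2 has no counterpart.

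Pi3K21B, the regulatory subunit, spans 7.4 kb of 2L (297880 to 305233, plus strand) and had 2 promoter peaks upstream of the same TSS. The farther summit, at 297642 and 238 bp upstream, had a signal of 282.4 for both libraries, 171.9 for replicate 2 and 108.2 for replicate 3. The nearer summit, at 297842 and 38 bp upstream, had 211.1 for both libraries, 142.8 for replicate 2 and 63.7 for replicate 3. The farther peak was the taller in each of the 3 lists. The summits lay 200 bp apart and their regions, 297476 to 297697 and 297627 to 298056, overlapped. Each library's own list also held a pair of summits here, at 297659 and 297860 in replicate 2 and at 297642 and 297841 in replicate 3. Among all 4303 gaps between neighbouring IDR summits the smallest was 199 bp, and 282 gaps were at most 250 bp. The 2 windows printed above differed in base composition: the GC content was 21.8% at the farther summit and 52.5% at the nearer one. The content at the nearer summit exceeded that of 96.5% of all IDR peaks.

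The third Pi3K21B peak lay 4132 bp downstream of the gene, at 309365. It had a signal of 546.2 for both libraries, 413.9 for replicate 2 and 148.7 for replicate 3, and ranked 481. It sat in an intron of the phospholipase C gene Plc21C and 17 bp from the start of lncRNA:CR43719, so the annotation places other genes closer to it than Pi3K21B.

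Akt, the kinase that PI3K lipids activate, spans 6.4 kb of 3R (16099228 to 16105670, plus strand). Both of its peaks lay near the 5 kb limit, at 4813 and 4613 bp upstream, inside an intron of the myosin heavy chain-like gene Mhcl and 265 and 465 bp from an Mhcl start. The first, at 16094415, had a signal of 732.5 for both libraries, 300.6 for replicate 2 and 444.5 for replicate 3. The second lay in the same region, at 16094615 and 200 bp from the first. It had 259.6 for both libraries, 205.1 for replicate 2 and 134.7 for replicate 3. The first ranked 648 of 30000 in the list of replicate 2 and 107 in that of replicate 3, and the ratio of its signal in replicate 2 to that in replicate 3 was 0.676, the lowest of the 17 peaks found in both lists, beside a median of 1.91 over all matched IDR peaks. No region at any rank had its summit in the Akt body, and at the Akt starts only the list of replicate 3 held a region, with a signal of 25.4.

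foxo, the forkhead transcription factor that Akt restrains, spans 31.0 kb of 3R (14056945 to 14087978, plus strand) and had 6 peaks, the most of the 9 genes. Its promoter peaks lay 489 and 286 bp upstream of the outermost TSS. The farther, at 14056456, had a signal of 340.6 for both libraries, 250.3 for replicate 2 and 92.8 for replicate 3, and was the tallest promoter peak among the 9 genes. The nearer, at 14056659, had 276.9 for both libraries, 215.4 for replicate 2 and 41.3 for replicate 3. As at Pi3K21B, the farther was the taller in each list, and the spacing of 203 bp was likewise near the smallest gap of the IDR list. The nearer peak had the highest ratio of replicate 2 to replicate 3 among the 17 peaks found in both lists, 5.21, beside the same median of 1.91. In the list of replicate 3 it ranked 4474 with a −log10 q of 1.22, against rank 1095 in that of replicate 2.

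Farther upstream of foxo 2 taller peaks lay 3340 and 4599 bp from the gene, and foxo had the nearest TSS to both. The peak at 14053605 had a signal of 818.1 for both libraries, 580.8 for replicate 2 and 249.4 for replicate 3, ranking 242, and the peak at 14052346 had 461.4, 320.4 and 136.0 in the same lists. Inside the gene, intron summits lay 6184 and 4199 bp downstream of the nearest start. The first of these, at 14064103, had 319.1 for both libraries, 180.9 for replicate 2 and 126.8 for replicate 3. The other, at 14062118, had 140.2 for both libraries, 74.0 for replicate 2 and 61.3 for replicate 3. All 6 foxo peaks were found in both libraries, and the tallest was the same in each list.

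Tor, annotated as mTor, encodes the kinase shared by both TOR complexes and spans 8.7 kb of 2L (13004480 to 13013197, plus strand). Its only peak, at 13004226, lay 254 bp upstream of Tor and 119 bp from the start of Vha68-1, a vacuolar ATPase subunit gene, so the peak belonged to the promoters of both genes by the 500 bp rule. Its signal was 221.5 for both libraries and 94.4 in replicate 3, and it ranked 1858. The list of replicate 2 held no region that overlapped it, and the nearest summit of that list was 10556 bp away, with a signal of 20.9. The absence of a region from that list is not a measurement of no signal in replicate 2.

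S6k, the ribosomal protein S6 kinase, spans 13.4 kb of 3L (5797549 to 5810931, minus strand) and had 1 peak, in an intron 2647 bp inside the gene at 5808284. Its signal was 118.6 for both libraries, 57.2 for replicate 2 and 58.2 for replicate 3. This was the lowest of the 18 peaks, ranked 4237 and just above the lowest IDR signal. At its start the list of both libraries held a region of only 36.0.

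Thor, the fly eIF4E-binding protein and inhibitor of translation, spans 1.2 kb of 2L (3478434 to 3479612, plus strand) and had 2 peaks upstream. The nearer, at 3477646 and 788 bp upstream, had a signal of 975.3 for both libraries, 417.2 for replicate 2 and 312.6 for replicate 3. It ranked 179, was the second tallest of the 18, and lay in an exon of lncRNA:CR43928, with the Thor TSS as the nearest start. Its summit in replicate 2 was displaced by 81 bp. The farther, at 3476081 and 2353 bp upstream, had 200.9 for both libraries, 118.0 for replicate 2 and 85.4 for replicate 3, and lay 262 bp from the start of lncRNA:CR43928. At the Thor starts the list of both libraries held a region of 96.0, ranked 5460 of 30000 and so below the IDR limit.

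Around the distance limits, the foxo promoter peak at 489 bp lay just inside 500 bp, and the InR peak at 648 bp and the Thor peak at 788 bp lay just outside. The Akt peak at 4813 bp lay just inside 5 kb, and the next IDR summit beyond it for any of the 9 genes was 8671 bp from InR, with a signal of 134.7.

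**Figure D2:**
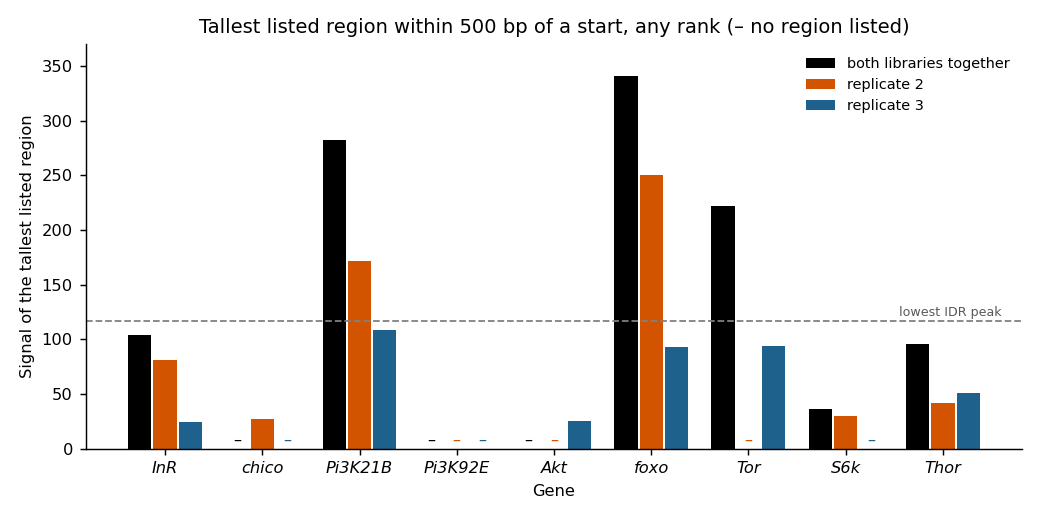
Signal of the tallest listed region within 500 bp of any start of each gene, whatever its rank. Bars give the list of both libraries together, replicate 2 and replicate 3, a dash marks no listed region, and the dashed line is the lowest IDR peak in the list of both libraries; Pi3K21B, foxo and Tor exceed it, InR at 103.7 and Thor at 96.0 come close below, and heights compare within a list only.

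As a group, the 18 peaks had a median signal of 300.8 in the list of both libraries, against 199.5 for all 4309 IDR peaks. Of the 18, 16 exceeded the median of all peaks and 8 exceeded the upper quartile of 329.2. The 5 promoter peaks lay within 211.1 to 340.6 with a median of 276.9, beside a median of 218.3 over the 1923 IDR peaks within 500 bp of any TSS. The 6 intron peaks ranged more widely, over 118.6 to 1163.0 with a median of 270.4. The 7 peaks outside the genes had the highest median, 546.2, and a range of 200.9 to 975.3. Every signal above 340.6 thus belonged to a peak that was not at a promoter of its own gene. Peak heights entered the choice of the genes, and 6 of the 18 peaks came from foxo. Nothing is therefore read from these heights beside those of all IDR peaks.

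Between the libraries, 17 of 18 peaks had a summit within 100 bp in both lists, and 3734 of all 4309 IDR peaks did. The ratio of replicate 2 to replicate 3 had a median of 1.75 with a range of 0.676 to 5.21 over the 17 peaks, against a median of 1.91 and a range of 0.146 to 15.4 over the 3734 matched IDR peaks. With only 2 libraries no error of a height can be given beyond this spread.

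**Figure D3:**
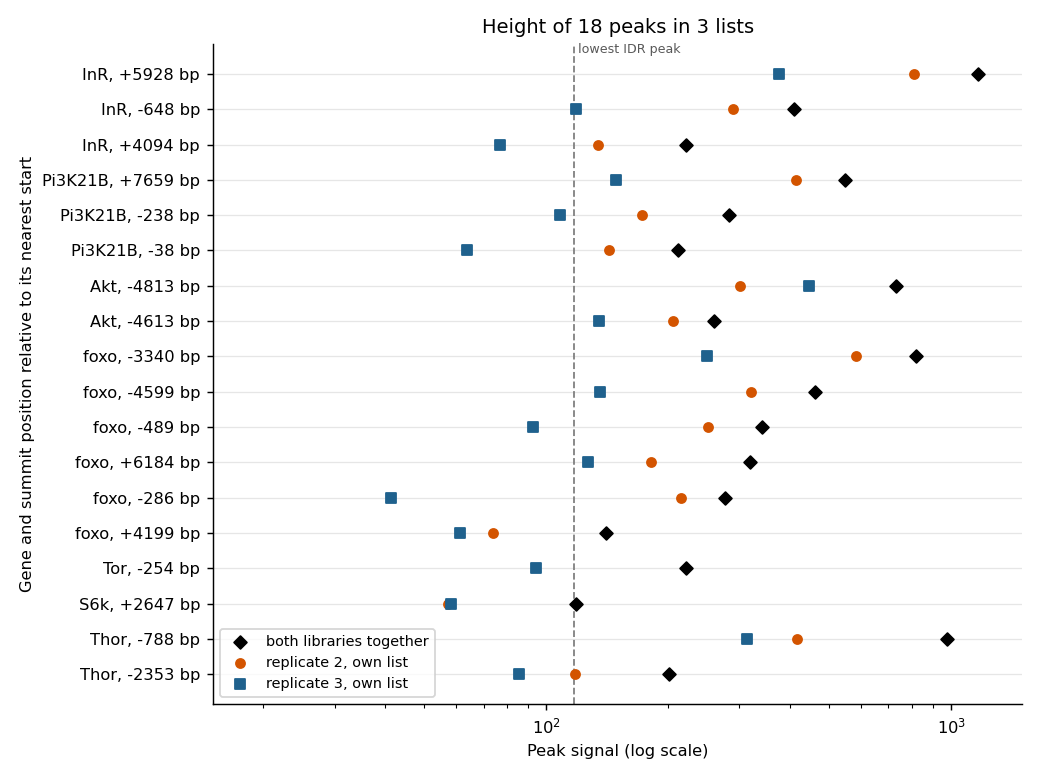
Signal of each of the 18 peaks in the list of both libraries together (diamonds), of replicate 2 (circles) and of replicate 3 (squares), on a log axis. Peaks are named by gene and by distance from the nearest start of that gene, negative upstream, and the dashed line is the lowest IDR signal of the list of both libraries; heights are read within a list, the InR peak at 1163.0 is the tallest diamond, and Tor has no circle.

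By position, 11 of the 18 summits had a TSS of the gene itself as the nearest start. Another gene had a start within 500 bp of 5 of them, and 4 lay inside another gene. The same counts were not made over all IDR peaks, so nothing is read from them. A start of any gene lay within 500 bp of 9 of 18 summits, or 50%, against 44.6% of all IDR summits. Per length, the bodies of the 9 genes held 4.71 summits per 100 kb, against 2.9 per 100 kb over all protein-coding gene bodies. All 6 of these summits came from the longest 3 genes, with 6.11 per 100 kb in InR, 6.44 in foxo and 7.47 in S6k. Peak positions entered the choice of the genes, so nothing is read from the share at starts or from this density.

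The windows of 50 bp on either side of the 18 summits had a median GC content of 29.2% with quartiles of 26.0 and 36.6%, against 32.7% with quartiles of 27.7 and 38.6% for all IDR peaks. Of the 18, 12 lay below the median of all peaks. The promoter peaks of Pi3K21B spanned most of the range, and those of foxo, at 27.7 and 26.7%, and Tor, at 28.7%, lay close together.

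**Figure D4:**
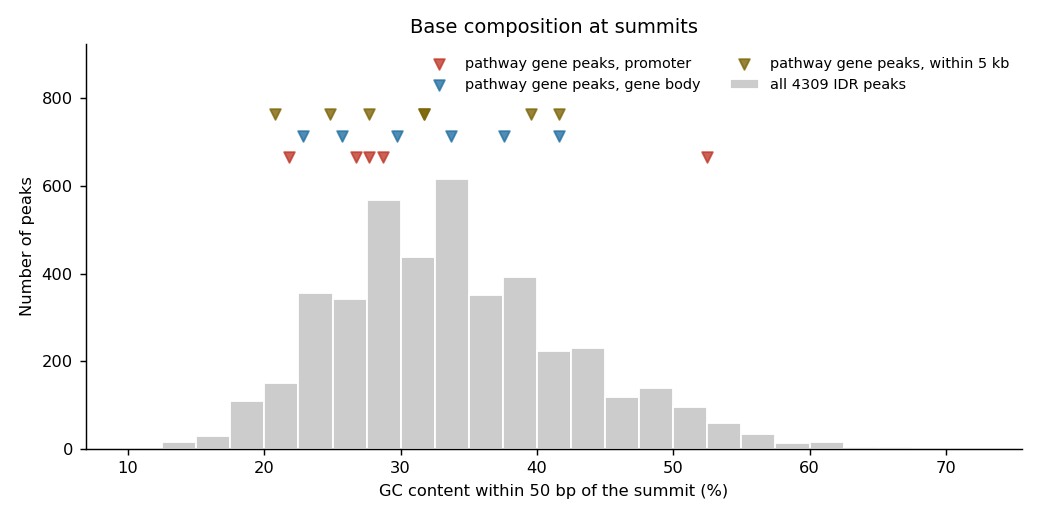
GC content within 50 bp on either side of summits. Triangles mark the 18 peaks by class, at heights that carry no value, and grey bars count all 4309 IDR peaks in bins of GC content; 12 of the 18 lie below the overall median of 32.7%, and the promoter peak at 52.5% is the nearer one of Pi3K21B.

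Each of the 8 words was searched on both strands of these windows, so a word can appear above as its reverse complement. CGATA occurred in 3 of 18 windows and in 13.3% of all IDR peaks. It is contained in TATCGATA, the word of the factors DREF and BEAF-32, which occurred in 0 of 18 windows and in 0.998% of all peaks. GAGAG, the word of GAGA factor, occurred in 3 of 18 windows and in 8.73% of all peaks. TATAAA, the word of the TATA box, occurred in 2 of 18, the pair of foxo promoter windows, and in 22.5% of all peaks. Of the E-box words, CAGCTG occurred in 2 of 18 windows and in 2.74% of all peaks, and CACGTG in 0 of 18 and in 0.905%. GTAAACA, a word of forkhead factors such as foxo, occurred in 0 of 18 windows and in 3.11% of all peaks, and ACAGGGTA in 0 of 18 and in 2.97%. At least 1 word was present in 7 of the 18 windows, or 38.9%, against 45.8% of all IDR peaks. In the windows printed above, the farther Pi3K21B summit, the Tor summit and the tallest peaks of InR, foxo and Thor held none of the words.

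A list of 64 pathway genes, the 9 included, was compared by role, with each gene under a single role assigned when the list was drawn up. The counts by role depend on that assignment. Promoter peaks were found at 14 of the 64, or 21.9%, beside the 15.3% of all protein-coding genes, and at 11 of the 55 others. No promoter peak was found at the 8 insulin-like peptide genes Ilp1 to Ilp8, and 6 of these had no summit within 5 kb. Of all protein-coding genes, 43.6% had a summit in the gene or within 5 kb. Ilp1 to Ilp4 lie together on 3L, from 9798420 to 9804263, and are not separate loci. No promoter peak was found at the 4 receptor and adaptor genes or at the 3 genes of TSC and Rheb either. The PI3K and phosphoinositide genes had them at 2 of 3 (Pi3K21B and Pdk1) and the Akt branch at 4 of 8 (foxo, melt, sgg and step). The TOR complexes had 1 of 6 (Tor), TOR effectors 2 of 10 (REPTOR and Mitf), and amino acid sensing 1 of 13 (Sesn). The ligand-binding proteins had 2 of 3 (ImpL2 and conv) and the energy and hypoxia inputs 2 of 6 (SNF4Agamma and Lkb1). A gene with more TSSs has more places where a summit can count. The number of TSSs differed, with 11 each in sgg and SNF4Agamma and 1 in most Ilp genes.

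The 12 promoter peaks of the 11 other genes had a median signal of 198.8 with a range of 123.5 to 2460.8, and 10 of them were found in both libraries. The tallest was that of melt, which encodes an adaptor that binds foxo and Tsc1. It lay 311 bp upstream with a signal of 2460.8 for both libraries, 1557.8 for replicate 2 and 916.4 for replicate 3, ranking 31. That of REPTOR, a transcription factor held back by TOR, had 629.7 for both libraries, 424.7 for replicate 2 and 180.8 for replicate 3. That of sgg, the fly GSK-3 kinase, had 606.6, 389.3 and 219.8 in the same lists. These 3 were taller than every promoter peak of the 9 genes, as were the peak of Sesn, the fly sestrin, at 509.9 for both libraries and that of SNF4Agamma, a subunit of AMP-activated kinase, at 416.7. The Sesn peak was shared with CG46429. The peaks of REPTOR, sgg and SNF4Agamma lay in introns, upstream of internal starts, and sgg and SNF4Agamma have 11 TSSs each.

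The other promoter peaks of the list were lower, within 123.5 to 216.3 for both libraries. They belonged to Lkb1 at 216.3, a kinase upstream of AMP-activated kinase, to conv at 181.2, and to ImpL2 at 179.9, a secreted insulin-binding protein. They also belonged to step, a cytohesin, at 152.5 and 123.5, to Pdk1, a kinase that phosphorylates Akt, at 149.3, and to Mitf, a transcription factor of lysosomal genes, at 137.2. Other genes had a start within 500 bp of the peaks of Lkb1 (CG9588), conv (Sps1) and the taller peak of step (CG1416). The peak of ImpL2 and the lower peak of step lay in introns, upstream of internal starts. For ImpL2 and Mitf the list of replicate 3 held no summit within 100 bp, although for ImpL2 one with a signal of 60.2 lay 115 bp away.

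**Figure D5:**
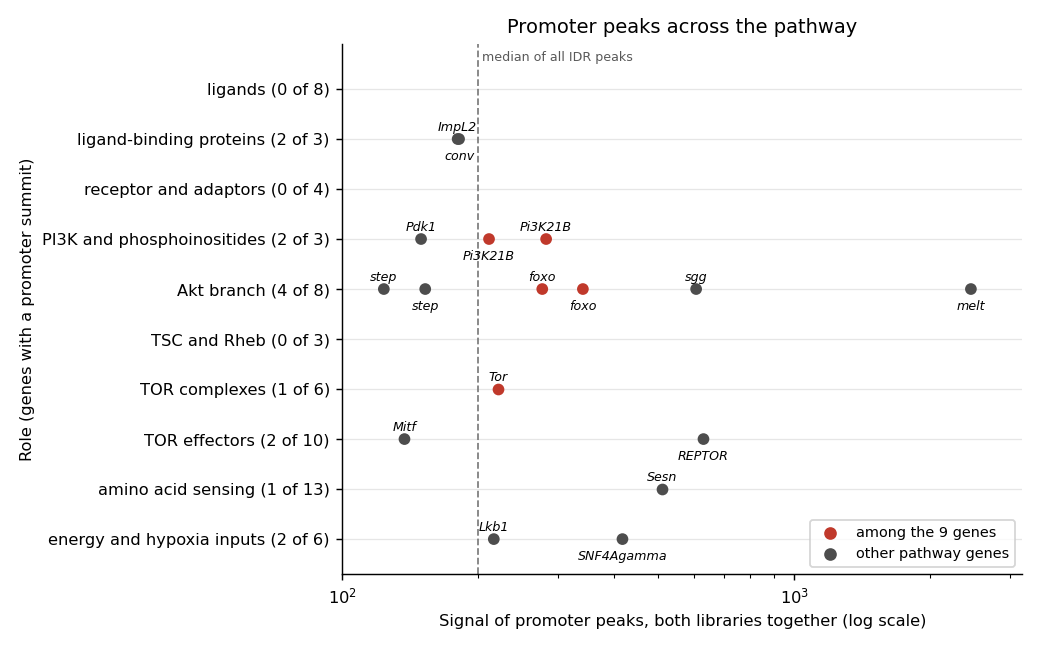
Signal of promoter peaks, in the list of both libraries together on a log axis, at genes of the pathway list grouped by role. Each point is a peak, the number of genes with a promoter peak stands beside each role, and the dashed line is the median of all IDR peaks, 199.5; the peak of melt at 2460.8 is the tallest, and the 5 peaks of Pi3K21B, foxo and Tor lie to the right of the line.

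Among 1763 protein-coding genes with a promoter peak in all 3 lists, the peaks most like the tallest foxo promoter peak, by the Euclidean distance of log2 signals over the 3 lists of these 2 libraries, belonged to CG9008, p38b and CG11267. CG9008 and p38b, a stress-activated kinase gene, shared a peak with 344.9 for both libraries, 242.5 for replicate 2 and 93.0 for replicate 3, at a distance of 0.05. That of CG11267 had 339.2 for both libraries, 246.4 for replicate 2 and 96.8 for replicate 3, at a distance of 0.07.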

How the data were processed

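The files are peak lists of ChIP-seq for D19B-GFP in 2 libraries of 1 group. The signal of each region was deposited by the authors and is taken here as its height over a control, which the sources used here do not define, and the −log10 q of each region was likewise deposited by the authors. The authors called peaks on each library and on both together and passed them to an IDR step, per the labels and the records beside the files. No aligner or peak caller, and no version of either, is given in the sources used here. The IDR list held exactly the 4309 regions of highest signal among the 30000 of both libraries together.

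Summits (1-based, dm6) were set against Ensembl release 115 genes (FlyBase 6.54), with transposable elements left out. Tor was matched as mTor by its older symbol, and 64 of 65 pathway symbols were matched (not susi). A further gene of the pathway list is not reported here. A library matched a peak when a summit of its list lay within 100 bp. The dm3 lists were not used. Named genes were the 9 genes, pathway genes with a promoter peak, genes sharing those summits, and 3 genes of nearest height. The 9 genes, the lists and the words were chosen with earlier results of these data known. Counts and medians are descriptions with no test, and peaks and genes are not replicates. Alternatives changed the distance limits, peak set, library matching and window, or left out a library. The scripts were tested on simulated data (Python 3.11.15, numpy 2.4.6, pandas 2.3.3, matplotlib 3.10.9).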

Additional observations from a re-analysis of the deposited data

How the results depend on the processing

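Of 48 alternative values, 32 stayed within their limits and 16 moved, and a reversal was not assessed. The limit for a count was a fixed fold of the main value. For a median it was the spread between the values of the single libraries. With a TSS window of 200 bp only 1 of the 9 genes had a promoter peak (Pi3K21B), found in both libraries; its signal was 211.1, its rank 1996.0 and its GC content 52.5%, and 7 genes of the pathway list had promoter peaks. With 1000 bp 5 genes had them (InR and Thor added), at a median rank of 1375.0. Merging overlapping regions left 3 promoter peaks, of which 2 were found in both libraries, at a median rank of 1375.0. The 2154 tallest IDR peaks left 9 pathway genes with a promoter peak. Taking the 4309 tallest regions of a single library gave 3 to 4 genes with promoter peaks, a median signal of 92.8 to 171.9 on scales of their own, a median rank of 1488.0 to 1510.0 and a median GC content of 27.7 to 30.7%. Those median signals were counted as moved against the list of both libraries, but their scales differ, so no change is read from them. Without replicate 2, Thor gained a promoter summit and a body summit. Without replicate 3, Tor lost its only peak and S6k its peak, and InR gained a promoter summit and Pi3K92E a body summit. No paired analysis was possible because there is 1 group and no test. Read depth is unknown, so a region missing from a list sets no upper limit on binding, and 2 libraries give no error beyond their difference.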
